A study of Mus musculus with 25 samples.

Results

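The chemokine system of the mouse sciatic nerve was read from 25 RNA-seq libraries of whole nerve, 1 for each of 5 groups at each of 5 ages. It was taken as every protein-coding gene of the count table whose symbol begins with Ccl, Cxcl, Xcl, Cx3cl, Ccr, Cxcr, Xcr, Cx3cr or Ackr followed by a number, which gave 65 of 56956 genes. These were 42 ligands, 19 signalling receptors and 4 atypical receptors. Of them, 33 had a mean of at least 0.5 CPM (a gene's count relative to all counts on genes in that library) and were tested, namely 23 ligands, 6 signalling receptors and all 4 atypical receptors. Levels below are CPM after TMM scaling, a correction of library size in edgeR.

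WT-C3 were C57BL/6J mice, and C3 were B6.Cg-Tg(PMP22)C3Fbas/J mice of the same background with 5 additional copies of human PMP22, the myelin gene whose duplication causes Charcot-Marie-Tooth type 1A. WT-C22 were FVB/NRJ mice, and C22 were Tg(PMP22)C22Clh mice of that background with 10 additional copies. C3-cJunKO stands for C3-PMP22 c-JunP0Cre mice, which carry the C3 transgene and lack c-Jun in Schwann cells through a Cre active in these cells. The labels give no strain for them, and a c-Jun knockout without the transgene was not analysed here. Where C3-cJunKO is compared with C3 or WT-C3, loss of c-Jun and a difference of strain or line therefore cannot be told apart. No group was treated, ages were 3, 5, 7, 9 and 12 weeks, and each library was made from nerves of 4 to 5 pooled animals of both sexes. The 5 ages therefore served as the replicates of a group (n = 5), with no second library of the same group and age, and p-values measure the spread between these pools. Transgene copy number and strain changed together between C3 and C22 and cannot be told apart.

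Chemokines are small secreted proteins that set up gradients followed by migrating cells, and their receptors are G protein-coupled. Atypical receptors bind the same ligands without G protein signalling and scavenge or transport them. In peripheral nerve, Cx3cr1 marks resident macrophages, Ccl2 from Schwann cells draws monocytes through Ccr2 after damage, and Cxcl12 is a homeostatic ligand of Cxcr4 and Ackr3.

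Counts on genes ran from 2140142 to 49072746 a library, with a median of 24663235. The lowest total was that of C3 at 9 weeks, where 1 count equals 0.467 CPM, and values of rare members there are coarse. Human PMP22 lay at 10070 to 13990 CPM in C3 and 9790 to 13920 CPM in C22, so its RNA was not higher in C22. In C3-cJunKO it lay at 7881 to 16340 CPM, and in the 10 WT libraries between 0.0393 and 6.42 CPM. Mouse Pmp22 was at 8344 to 11400 CPM in C3 and 3671 to 4717 CPM in C22. Jun was at 26.3 to 31.8 CPM in C3-cJunKO against 94.1 to 123 CPM in C3, a log2 value of -1.90 (edgeR: SE 0.09, adjusted p = 6.08e-07). The C22 library of 9 weeks stood apart through lymphocyte genes: its summed T cell markers were 25.8 CPM and its B cell markers 19.0 CPM, against at most 4.80 and 2.74 CPM in any other library. Among calls of members between groups, leaving out C3 at 9 weeks changed that of Ackr1 in C3, and leaving out C22 at 9 weeks changed none. Without both libraries Cxcl11 also passed when the C22 change was compared with the C3 change (edgeR, adjusted p = 0.0280).

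Per kilobase of exon, the highest mean levels over the 25 libraries were those of Ccl11, an eosinophil attractant (65.5 CPM per kb), Cxcl14 (42.7), the lymphatic ligand Ccl21a (27.7), Cxcl12 (24.7) and Ackr1, the venular scavenger of many ligands (23.6). In the 10 WT libraries alone Ccl11 (70.4 CPM per kb), Cxcl12 (29.0), Ackr1 (27.1) and Ccl21a (26.0) came first and Cxcl14 was at 4.84. Cxcl12, Cxcl14 and Ccl11 together held most of the summed CPM of the 33 tested members, with shares of 29.0%, 20.6% and 10.3%, which were 38.5%, 2.63% and 12.4% in the WT libraries. At the other end, 14 of the 32 members below the minimum never exceeded 3 counts in a library, and 7 of these had no count at all, among them Ccl21d, Ccl21e, Ccl21f and Ccl27b. Counts of 0 for these last 4 are uncertain, because they have near-identical copies and reads that align to more than 1 place were left out of the counts (2.76% to 3.93% of reads a library); Ccl21a, Ccl27a and Ccl19 share that limit. Just inside the minimum lay Cxcr3 with a mean of 0.501 CPM and Ccl19 with 0.532, both of which would fall below it without the C22 library of 9 weeks (0.452 and 0.381). Just outside lay Cxcr6 with 0.342. These means are before TMM scaling.

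In C3 against WT-C3, 7 of the 33 members passed an adjusted p of 0.05 in edgeR, beside 20.4% of all 16472 genes tested. Of these, 6 rose (10.7% of all genes rose) and 1 fell (9.71% fell). In C22 against WT-C22, 12 members passed beside 38.3% of all genes, with 8 that rose (20.0% of genes) and 4 that fell (18.3%). The share of members called was close to that of genes in general in both models. Cxcl14, Cxcl10, Cxcr4, Cx3cr1 and Ccl25 passed in both and rose in both, which is 71.4% of the members called in C3 and 41.7% of those called in C22. The same overlap was not counted over all genes, of which 38.3% passed in C22, so it is not read as a trait of the members. The size of the change was tested directly between the models: the C22 change exceeded the C3 change for 1 member, Cxcr4, and no other member passed, while 10.2% of all genes did (4.07% with the higher change in C22). C3-cJunKO differed from C3 in 2 members, with Cxcl10 lower and Cxcr4 higher, beside 0.607% of all genes (0.237% up and 0.370% down). The libraries of the same age correlated in these 2 groups, and with age as a replicate block 330 genes in place of 100 passed, the members called still being 2. C3-cJunKO against WT-C3 gave 8 members (4 up, 4 down) beside 19.8% of genes (9.73% up, 10.1% down); these libraries of WT-C3 are also the controls of C3. Between the WT groups 7 members differed, 1 higher and 6 lower in WT-C22, beside 21.3% of genes (9.78% higher, 11.5% lower). With library size alone in place of TMM, log2 values of the called members rose by a median of 0.17 in C22, and the split became 10 up and 1 down there and 5 up and 2 down in C3-cJunKO against WT-C3. Altogether 15 of the 33 members passed in none of these 6 comparisons, among them Ccl11, Ccr2 and Ccr1, a count that was not made over all genes. Of these 15, 7 passed in at least 1 comparison under an alternative fit or with 1 library left out (Cxcl13, Ackr4, Cxcl16, Ccl8, Ccl19, Ccl21a and Ccl28).

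**Figure D1:**
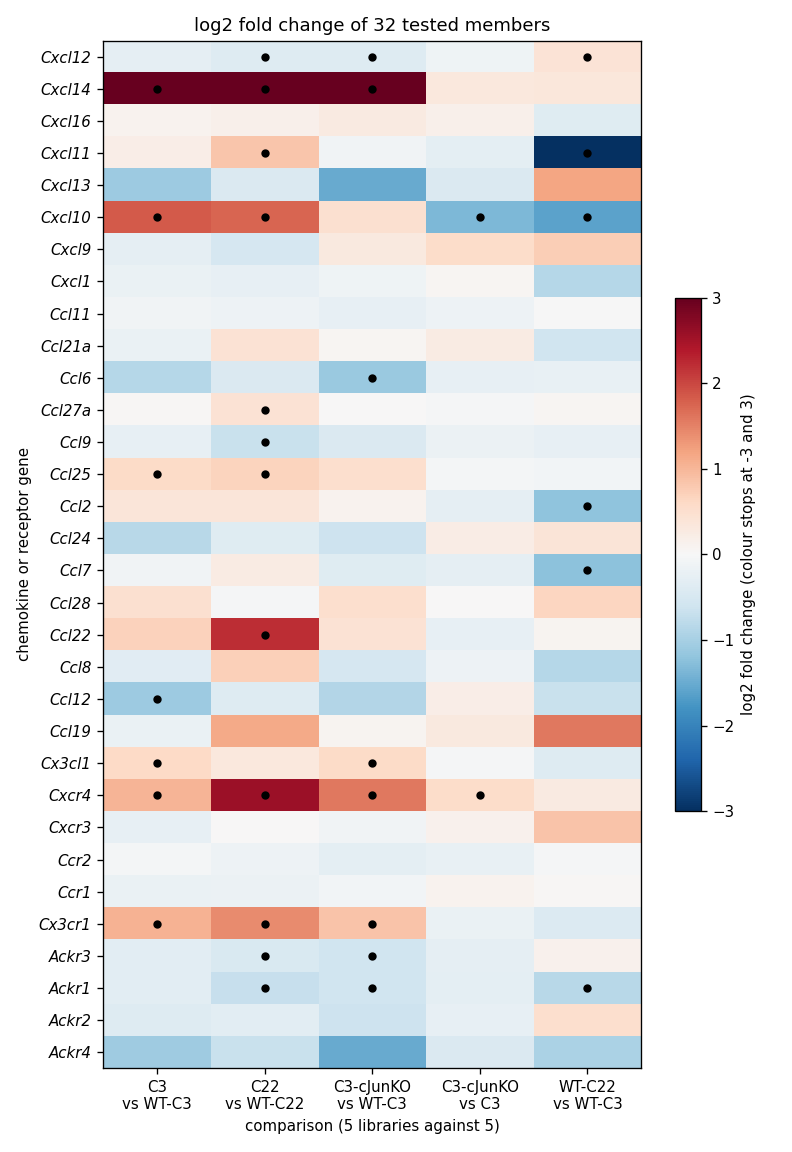
Log2 fold change (colour, stopped at -3 and 3) of 32 tested members (rows, by family) in 5 comparisons of 5 libraries against 5 (columns); black dots mark an adjusted p under 0.05 in edgeR. Cxcl14 is the darkest red row in the first 3 columns (3.23, 4.38 and 3.55), and the column of C3-cJunKO against C3 holds only 2 dots, Cxcl10 and Cxcr4.

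The sequences just upstream of 3 members were searched for sites of factors that switch on chemokine genes. They are shown for Cxcl10 and Cxcr4, which differed between C3-cJunKO and C3, and for Cxcl14, which had the largest change in both models. They are RefSeq windows from 250 bases before to 50 after the transcription start (mouse GRCm38.p6, minus strand, printed 5′ to 3′ along the gene). The build differs from that of the counts (GRCm39), so windows were matched by symbol; 47 of the 65 members had one. Capitals mark matches to 3 short motifs searched on both strands: AP-1, the site bound by Jun and Fos proteins (TGANTCA), a kappa B site (GGGANNTTC) and an interferon response element (TTCNNTTTC, on the other strand GAAANNGAA).
Cxcl10, chr5:92348840-92349139: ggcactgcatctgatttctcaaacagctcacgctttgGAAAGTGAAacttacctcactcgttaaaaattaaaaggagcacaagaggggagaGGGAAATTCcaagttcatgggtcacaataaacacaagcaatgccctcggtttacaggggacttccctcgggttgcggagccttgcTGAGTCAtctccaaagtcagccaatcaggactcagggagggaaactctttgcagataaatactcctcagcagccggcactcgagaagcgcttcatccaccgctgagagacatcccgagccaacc
Cxcr4, chr1:128592250-128592549: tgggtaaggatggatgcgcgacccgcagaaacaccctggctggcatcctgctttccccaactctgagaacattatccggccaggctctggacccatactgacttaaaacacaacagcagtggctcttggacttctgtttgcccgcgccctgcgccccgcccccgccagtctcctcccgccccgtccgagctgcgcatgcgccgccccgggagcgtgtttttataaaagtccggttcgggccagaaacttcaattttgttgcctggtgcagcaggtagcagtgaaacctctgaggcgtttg
Cxcl14, chr13:56296502-56296801: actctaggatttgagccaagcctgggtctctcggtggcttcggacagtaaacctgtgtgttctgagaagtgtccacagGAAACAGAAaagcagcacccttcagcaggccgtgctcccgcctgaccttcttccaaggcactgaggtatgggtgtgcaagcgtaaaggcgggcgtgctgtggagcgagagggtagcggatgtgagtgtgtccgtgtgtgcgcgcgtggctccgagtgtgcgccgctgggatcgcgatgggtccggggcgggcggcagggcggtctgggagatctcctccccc

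The Cxcl10 window held all 3 motifs once each, with the AP-1 letters TGAGTCA at positions -74 to -68 from the start, the kappa B match at -159 to -151 and the interferon match at -213 to -205. In the Cxcr4 window none of the 3 was found. Cxcl14 had 1 interferon match, at -172 to -164. Among all 32851 promoter windows of this length, 7.81% held the AP-1 letters, 3.94% the kappa B letters and 8.56% the interferon letters. Of the 26 tested members with a window, 5 held AP-1 letters (Cxcl10, Cxcl9, Ccl9, Ccl27a and Ccl28), and of these 5 only Cxcl10 passed in C3-cJunKO against C3. Kappa B letters were held by 3 (Cxcl10, Cxcl9 and Cxcl1) and interferon letters by 5 (Cxcl10, Cxcl9, Cxcl14, Ccr2 and Ccl19). A member was counted if any of its windows matched, while the percentages are of single windows, so no excess is read from these counts. A match describes letters in this window and does not show that a factor binds there. Other forms of these sites, which the letters given do not match, were not searched and are not marked.

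Cxcl14, an ancestral chemokine made by many epithelia and stromal cells (gene at chr13:56436352-56444603, GRCm39), showed the largest rise of all members in both models. Its CPM, in order of age from 3 to 12 weeks here and in all lists below, were 5.95, 10.2, 14.1, 21.4 and 21.6 in WT-C3 and 176, 153, 130.0, 143 and 90.4 in C3. In FVB nerves they were 10.0, 15.9, 15.0, 19.0 and 32.5 in WT-C22 and 494, 498, 364, 275 and 312 in C22. Transgenic and WT libraries did not overlap, and the order of the groups was C22 above C3 above both WT groups. The log2 fold change was 3.23 (edgeR: SE 0.31, adjusted p = 6.09e-05) in C3, a fold of 9.37, and 4.38 (edgeR: SE 0.31, adjusted p = 1.06e-06) in C22, a fold of 20.8. The difference between the changes, 1.13 (edgeR: SE 0.43, adjusted p = 0.114), did not pass, with a 95% interval of 0.27 to 1.98 on the log2 scale before adjustment over genes. In C3-cJunKO Cxcl14 was at 211, 162, 162, 169.8 and 156 CPM, above C3 at every age. The c-Jun comparison gave a log2 value of 0.32 (edgeR: SE 0.15, adjusted p = 0.650), which did not pass.

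The age course of Cxcl14 ran in opposite directions in the WT groups and in C3 and C22. It rose from the youngest to the oldest WT library by 0.20 ± 0.03 (SE) log2 units a week in WT-C3 and by 0.17 ± 0.03 in WT-C22, and had slopes of -0.10 ± 0.03 in C3 and -0.09 ± 0.03 in C22. In C3-cJunKO the slope was -0.04 ± 0.03 and age did not pass (spline in edgeR, adjusted p = 0.244). A spline of age in edgeR passed in WT-C3 (adjusted p = 0.00651), C3 (0.0450), WT-C22 (0.00454) and C22 (0.0490), where 0.601%, 1.83%, 2.74% and 0.504% of all genes passed. The course itself differed between C3 and WT-C3 (adjusted p = 0.0258) and between C22 and WT-C22 (adjusted p = 0.0499), tests that 5 genes (0.0304%) and 1 gene (0.00607%) of 16472 passed. Cxcl14 was that 1 gene in the FVB pair, where 20 genes passed with a spline of 2 degrees of freedom, 52 with a straight line, 189 with the likelihood ratio test of DESeq2 and 0 with the study's own filter. The course in C22 and in C3 lay near the threshold and was lost with a spline of 2 degrees of freedom (adjusted p = 0.151 and 0.089 in edgeR) or a straight line (0.107 and 0.0505). The linear form of the same tests gave a slope difference of -0.30 ± 0.04 in C3 and -0.27 ± 0.04 in C22 (edgeR, adjusted p = 0.0122 and 0.00398). The excess over WT was larger in young than in old nerve. C3 exceeded WT-C3 by 29.5 times at 3 weeks and by 4.19 times at 12 weeks, and C22 exceeded WT-C22 by 49.4 and 9.59 times.

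**Figure D2:**
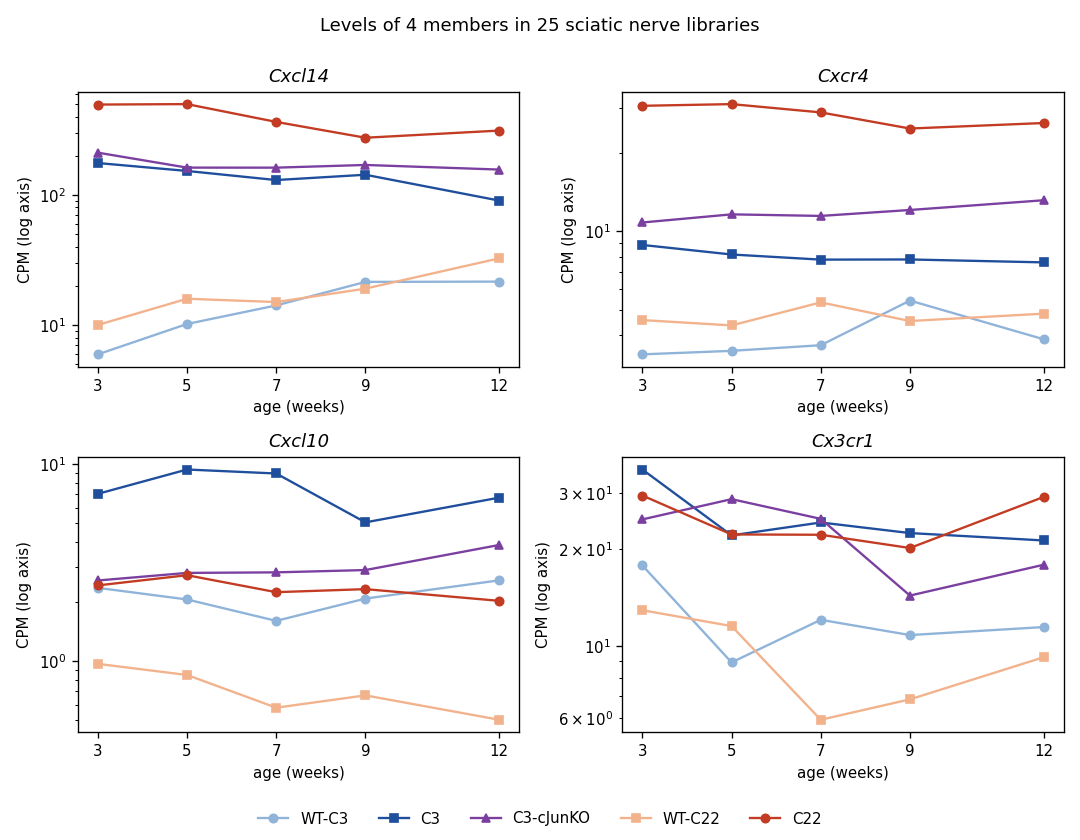
CPM (log axis) against age in weeks for Cxcl14, Cxcr4, Cxcl10 and Cx3cr1; each point is 1 library of pooled nerves and each line 1 group. Cxcl14 rises with age in both WT groups from 5.95 and 10.0 CPM and comes down from 176 and 494 CPM in C3 and C22, Cxcr4 forms separate levels with C22 at 24.9 to 30.9 CPM, and Cxcl10 in C3-cJunKO lies between C3 and WT-C3.

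Cxcl10, Cxcl9 and Cxcl11 are interferon-inducible ligands of the T cell receptor Cxcr3, and they did not move together. Cxcl10 (chr5:92494497-92496748) stood at 2.35, 2.05, 1.60, 2.07 and 2.56 CPM in WT-C3 from 3 to 12 weeks and at 7.05, 9.36, 8.94, 5.05 and 6.74 CPM in C3. The corresponding levels were 0.966, 0.849, 0.579, 0.668 and 0.503 CPM in WT-C22 and 2.42, 2.72, 2.23, 2.31 and 2.02 CPM in C22. Every C3 library lay above every WT-C3 library and every C22 library above every WT-C22 library, and the range of C22 overlapped that of WT-C3. The log2 fold changes were 1.83 (edgeR: SE 0.19, adjusted p = 0.000106) in C3 and 1.74 (edgeR: SE 0.21, adjusted p = 5.68e-05) in C22, and the difference between them was -0.11 (edgeR: SE 0.28, adjusted p = 0.892).

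In C3-cJunKO, Cxcl10 was at 2.56, 2.80, 2.81, 2.89 and 3.88 CPM, below all 5 C3 libraries. The log2 fold change against C3 was -1.35 (edgeR: SE 0.18, adjusted p = 0.00338), the largest fall among the members in that comparison. Against WT-C3 the level remained higher at 5 of 5 ages by 0.48 (edgeR: SE 0.18, adjusted p = 0.0836), which did not pass. Jun itself was higher in C3 than in WT-C3 by a log2 of 0.90 ± 0.10 (SE; adjusted p = 0.00017 in edgeR) and in C22 than in WT-C22 by 1.41 ± 0.16 (adjusted p = 4.36e-05). In whole nerve, a change in the number of cells that make a transcript and a change in the transcript per cell cannot be told apart, here and below.

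Cxcl11 (chr5:92507403-92513344) separated the strains. Its CPM ran 9.47, 10.6, 8.55, 6.70 and 9.10 in WT-C3 and 1.04, 1.06, 0.745, 1.14 and 1.06 in WT-C22, a log2 fold change of -3.13 (edgeR: SE 0.17, adjusted p = 1.52e-07). In C22 it was at 1.80, 1.51, 1.73, 1.05 and 2.97 CPM, higher than in WT-C22 at 4 of 5 ages by 0.84 (edgeR: SE 0.26, adjusted p = 0.0250). That call was lost without the WT-C22 library of 7 weeks (adjusted p = 0.0636) or the C22 library of 12 weeks (adjusted p = 0.0605). C3 had 8.13, 9.25, 9.48, 17.0 and 10.0 CPM and C3-cJunKO 6.29, 8.60, 9.69, 10.0 and 6.67, and the high value in C3 at 9 weeks rests on 37 counts. Reads from FVB nerves were aligned to a reference of C57BL/6 origin, and what that contributes to differences between strains was not tested. Cxcl9 passed in none of the comparisons between groups and lay between 0.1199 and 2.99 CPM.

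**Figure D3:**
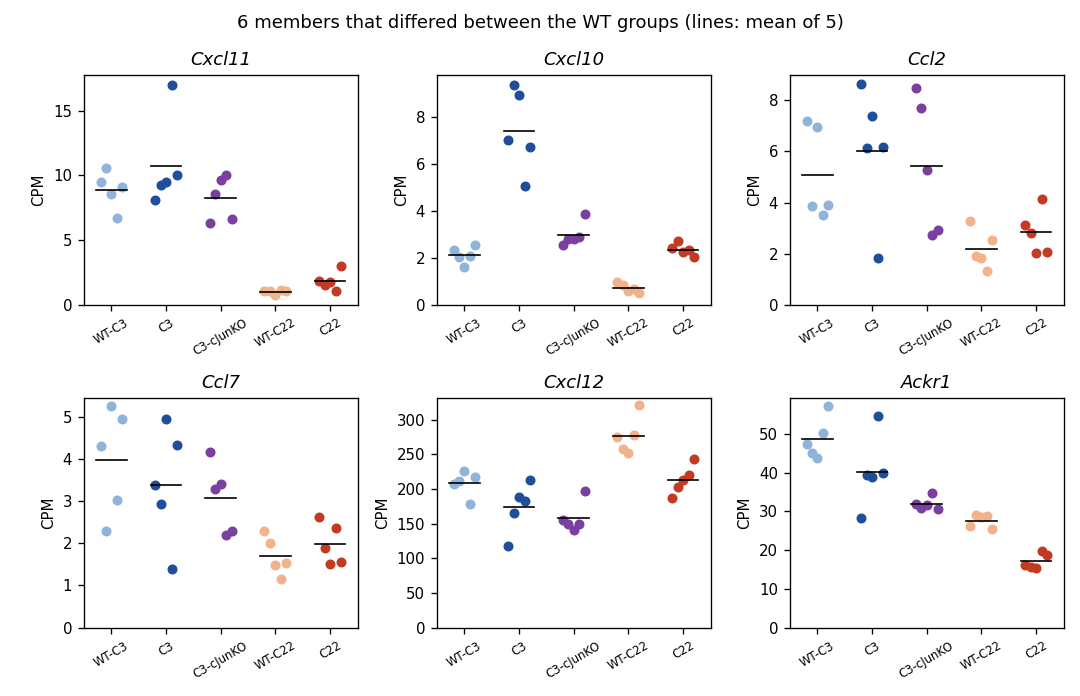
CPM in every library (points, in order of age from left to right within a group) and group means of 5 libraries (lines) for 6 members that differed between the WT groups. Cxcl11 is at 6.29 CPM or more in WT-C3, C3 and C3-cJunKO and at 2.97 CPM or less in WT-C22 and C22. The C22 values of Ccl2 and Ccl7 overlap those of WT-C22, and the highest of each (4.12 and 2.62 CPM) lies above all WT-C22 values.

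The receptor Cxcr4 was higher in the transgenic groups, while its ligand Cxcl12 and the scavenger Ackr3 were lower in C22 and C3-cJunKO. Cxcr4 (chr1:128515936-128520044), which guides myeloid cells, lymphocytes and progenitors, had 3.37, 3.47, 3.65, 5.42 and 3.85 CPM in WT-C3 and 4.56, 4.35, 5.33, 4.52 and 4.83 CPM in WT-C22. It reached 8.88, 8.15, 7.79, 7.80 and 7.60 CPM in C3 and 30.5, 30.9, 28.7, 24.9 and 26.2 CPM in C22. The 5 C22 libraries were all above every other library of the series, and the 5 C3 libraries above every WT library. The log2 fold change was 1.03 (edgeR: SE 0.16, adjusted p = 0.000989) in C3 and 2.57 (edgeR: SE 0.09, adjusted p = 1.07e-08) in C22. Between the models the change differed by 1.52 (edgeR: SE 0.16, adjusted p = 2.45e-06), with a 95% interval of 1.20 to 1.84, and it passed under every alternative tried. No other member passed this test with all libraries in.

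C3-cJunKO had still more Cxcr4 than C3, at 10.8, 11.6, 11.5, 12.1 and 13.2 CPM. The groups did not overlap, and the log2 fold change was 0.56 (edgeR: SE 0.10, adjusted p = 0.0247). This call was lost in 7 of 10 fits that left out 1 library (adjusted p 0.0694 to 0.117, without C3 at 5, 7 or 12 weeks or C3-cJunKO at 5, 7, 9 or 12 weeks) and with no filter on low counts (adjusted p = 0.0531), whereas the higher level held at 5 of 5 ages. Against WT-C3 the rise in C3-cJunKO was 1.59 (edgeR: SE 0.14, adjusted p = 1.07e-05).

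Cxcl12 (chr6:117144945-117158328), the member with the highest CPM, was at 274, 258, 251, 278 and 322 CPM in WT-C22 and at 187, 202, 213, 220.2 and 243 CPM in C22, where it fell by 0.38 on the log2 scale (edgeR: SE 0.09, adjusted p = 0.00605). In WT-C3 it was at 207, 212, 226, 178 and 217 CPM and in C3 at 118, 165, 188, 183 and 213 CPM, a log2 difference of -0.26 (edgeR: SE 0.14, adjusted p = 0.200) that did not pass. C3-cJunKO had 156, 149.7, 140.5, 149 and 196 CPM and was lower than WT-C3, with a log2 change of -0.39 (edgeR: SE 0.10, adjusted p = 0.0163). WT-C22 nerves held more Cxcl12 than WT-C3 nerves, by a log2 of 0.41 (edgeR: SE 0.09, adjusted p = 0.00605). With library size alone as the scaling, the 2 falls no longer passed (adjusted p = 0.0959 in C22 and 0.0602 in C3-cJunKO), while the strain difference did.

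Ackr3 (chr1:90131689-90144473) fell in C22, from 64.6, 71.5, 112, 90.0 and 95.7 CPM in WT-C22 to 55.5, 61.5, 67.0, 69.2 and 66.1 CPM. Its log2 fold change there was -0.45 (edgeR: SE 0.14, adjusted p = 0.0229). It was at 56.0, 65.7, 108, 85.8 and 82.4 CPM in WT-C3 and 44.6, 67.3, 72.4, 67.0 and 66.6 CPM in C3, with -0.33 (edgeR: SE 0.17, adjusted p = 0.210), which did not pass. In C3-cJunKO it was at 46.0, 49.8, 47.8, 46.8 and 70.1 CPM, lower than in WT-C3, with a log2 change of -0.60 (edgeR: SE 0.17, adjusted p = 0.0236). Both calls were lost with library size alone (adjusted p = 0.150 and 0.0610). The C22 call was also lost without WT-C22 at 7 or 9 weeks or C22 at 3 weeks (adjusted p 0.05003 to 0.0555), and the C3-cJunKO call without WT-C3 at 7 or 9 weeks or C3-cJunKO at 5, 7 or 9 weeks (0.0538 to 0.0601).

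The pair Cx3cl1, a membrane-bound ligand of neurons and endothelium, and Cx3cr1, its receptor on macrophages, rose together in C3. Cx3cr1 (chr9:119877749-119898945) had 17.8, 8.91, 12.1, 10.8 and 11.5 CPM in WT-C3 and 35.4, 22.1, 24.3, 22.5 and 21.3 CPM in C3. In the FVB groups it had 12.9, 11.6, 5.91, 6.84 and 9.25 CPM in WT-C22 and 29.4, 22.3, 22.2, 20.2 and 29.1 CPM in C22. All C3 libraries lay above all WT-C3 libraries, and all C22 libraries above all WT-C22 libraries. The log2 fold change was 1.05 (edgeR: SE 0.19, adjusted p = 0.00301) in C3 and 1.41 (edgeR: SE 0.21, adjusted p = 0.000268) in C22, and in every alternative both passed. C3-cJunKO had 24.8, 28.7, 24.9, 14.4 and 17.9 CPM, higher than WT-C3 by 0.86 (edgeR: SE 0.21, adjusted p = 0.0118) although WT-C3 at 3 weeks (17.8 CPM) exceeded C3-cJunKO at 9 weeks (14.4 CPM), and its difference from C3 was -0.19 (edgeR: SE 0.20, adjusted p = 0.911).

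Other macrophage genes did not rise with Cx3cr1 as a list. Of 12 macrophage markers (Csf1r, Adgre1, Cd68, Aif1, C1qa, C1qb, C1qc, Mrc1, Cd163, Itgam, Fcgr1 and Trem2), 1 rose and 1 fell in C3 and 2 rose and 2 fell in C22, with medians of -0.09 and 0.02 on the log2 scale beside 0.00 and 0.01 over all genes. The receptor Trem2 rose in both, by 1.29 ± 0.16 in C3 (edgeR, adjusted p = 0.00028) and by 1.099 ± 0.14 in C22 (adjusted p = 8.4e-05). The haemoglobin scavenger receptor Cd163 fell in both, by 0.69 and 0.93 on the log2 scale (edgeR, adjusted p = 0.0475 and 0.00963). In C22 Aif1 also rose (0.45 ± 0.16) and Mrc1 also fell (by 0.45). Summed macrophage markers spanned 309 to 548 CPM in WT-C3 and 303 to 418 CPM in C3, and 347 to 532 CPM in WT-C22 and 321 to 453 CPM in C22. None of the 12 was at 0 in any group. Of 5 dendritic cell markers, 4 were tested and 2 rose in C22 and none in C3, namely Flt3 and Zbtb46. Itgax and Cd209a did not pass in either, with Cd209a at -0.12 in C3 and 0.07 in C22 on the log2 scale. The sum of the 5 markers was 26.6 to 28.6 CPM in C3 against 21.2 to 25.4 CPM in WT-C3, and 28.7 to 41.5 CPM in C22 against 22.6 to 27.8 CPM in WT-C22, without overlap in either pair. Most of that sum was Zbtb46, with a mean of 22.7 CPM beside 2.75 for Cd209a, 1.20 for Itgax and 0.578 for Flt3. Without C22 at 9 weeks the highest C22 sum was 34.3 CPM, and Flt3 and Zbtb46 passed (edgeR, adjusted p = 0.00597 and 0.0273). The part of macrophage or dendritic cell content in the Cx3cr1 values was not tested.

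Cx3cl1 (chr8:95498637-95509055) was at 6.42, 5.21, 6.96, 5.90 and 6.23 CPM in WT-C3, 7.74, 9.05, 8.78, 14.2 and 9.08 CPM in C3 and 7.79, 9.61, 8.99, 9.90 and 9.02 CPM in C3-cJunKO. It rose by 0.61 (edgeR: SE 0.16, adjusted p = 0.0183) in C3 and by 0.57 (edgeR: SE 0.12, adjusted p = 0.00471) in C3-cJunKO, with no overlap with WT-C3 in either. Its CPM were 3.98, 3.82, 4.67, 5.54 and 5.33 in WT-C22 and 5.45, 5.59, 5.51, 6.94 and 6.02 in C22. The difference of 0.33 (edgeR: SE 0.14, adjusted p = 0.0849) had 5 of 5 ages higher but did not pass. The C3 value of 14.2 CPM at 9 weeks rests on 31 counts, and the rise in C3 passed in all 10 fits that left out 1 library.

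Among the neighbouring CC ligands of chromosome 11, Ccl2, Ccl7, Ccl8, Ccl11 and Ccl12, 1 member passed in a model and 2 between the strains. Ccl2 (chr11:81926397-81928279), the principal ligand of Ccr2, had 7.20, 3.87, 6.96, 3.51 and 3.91 CPM in WT-C3, 8.63, 6.13, 7.39, 1.84 and 6.17 in C3 and 8.48, 7.69, 5.26, 2.73 and 2.93 in C3-cJunKO. It had 3.29, 1.91, 1.82, 1.34 and 2.54 CPM in WT-C22 and 3.13, 2.82, 2.02, 4.12 and 2.06 in C22. The groups of each model overlapped, with log2 changes of 0.37 (edgeR: SE 0.29, adjusted p = 0.417) in C3 and 0.36 (edgeR: SE 0.28, adjusted p = 0.326) in C22, neither of which passed. The 95% intervals ran from -0.21 to 0.94 in C3 and from -0.18 to 0.90 in C22. WT-C22 was lower than WT-C3 without overlap, at a log2 value of -1.20 (edgeR: SE 0.29, adjusted p = 0.0103).

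Ccl7 (chr11:81936532-81938351), a relative of Ccl2, followed the same order of strains, with 4.30, 2.29, 5.25, 3.03 and 4.95 CPM in WT-C3 and 2.28, 2.02, 1.49, 1.14 and 1.53 CPM in WT-C22. The log2 difference was -1.24 (edgeR: SE 0.27, adjusted p = 0.00528). Its CPM were 3.39, 2.93, 4.94, 1.38 and 4.32 in C3, 4.16, 3.28, 3.40, 2.20 and 2.28 in C3-cJunKO and 2.62, 1.90, 1.51, 2.35 and 1.56 in C22, and no comparison with WT passed. Ccl12 (chr11:81992645-81994466) was the single member that fell in C3, from 1.02, 0.868, 0.684, 1.35 and 0.916 CPM to 0.450, 0.468, 0.422, 0 and 0.576 CPM. Its log2 change was -1.08 (edgeR: SE 0.32, adjusted p = 0.0289), but with these low counts the call was lost with no filter (adjusted p = 0.0901), with age as a replicate block (0.101) and in 5 of 10 fits that left out 1 library, namely WT-C3 at 3 or 9 weeks or C3 at 3, 5 or 7 weeks (0.0533 to 0.0793). In the other groups Ccl12 had 0.533, 0.821, 0.731, 0.122 and 0.362 CPM in C3-cJunKO, 1.16, 0.955, 0.414, 0.354 and 0.327 in WT-C22 and 0.443, 0.535, 0.360, 0.506 and 0.495 in C22. Ccl11 and Ccl8 passed in none of the 6 comparisons, at 48.7 to 95.9 CPM and 0 to 1.37 CPM.

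Ccl6 and Ccl9, neighbouring macrophage ligands of Ccr1, each fell in 1 of the transgenic groups. Ccl6 (chr11:83478708-83483913) had 15.6, 14.8, 34.4, 30.8 and 26.1 CPM in WT-C3, 5.76, 14.5, 15.3, 10.1 and 20.2 in C3 and 5.87, 11.0, 12.2, 10.6 and 16.3 in C3-cJunKO. It was lower than WT-C3 at 5 of 5 ages in both. The log2 change was -1.10 (edgeR: SE 0.28, adjusted p = 0.0137) in C3-cJunKO, and -0.84 (edgeR: SE 0.32, adjusted p = 0.0854) in C3, which did not pass. It had 10.6, 15.4, 29.9, 20.2 and 27.6 CPM in WT-C22 and 13.7, 11.1, 14.3, 21.3 and 16.4 in C22. Ccl9 (chr11:83463745-83473161) had 13.5, 13.2, 23.9, 13.7 and 17.9 CPM in WT-C22 and 8.17, 7.59, 10.2, 15.4 and 10.7 in C22, and it fell by 0.66 on the log2 scale (edgeR: SE 0.22, adjusted p = 0.0348) with 4 of 5 ages lower. That call did not pass with library size alone (adjusted p = 0.103) or in 6 of 10 fits that left out 1 library, namely WT-C22 at 7 or 12 weeks or C22 at 3, 5, 7 or 12 weeks (0.0512 to 0.0930). Its CPM elsewhere were 14.2, 11.8, 26.0, 26.1 and 19.7 in WT-C3, 14.1, 18.5, 18.7, 13.3 and 15.7 in C3 and 15.7, 14.6, 15.4, 11.8 and 14.2 in C3-cJunKO, with overlapping groups.

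Ccl25, known as the thymic and gut ligand of Ccr9, rose in both models. It had 5.71, 5.37, 3.99, 4.38 and 5.43 CPM in WT-C3 and 8.96, 6.71, 6.19, 10.1 and 6.29 in C3. Its levels were 5.37, 5.20, 4.96, 4.40 and 3.80 CPM in WT-C22 and 8.58, 7.44, 7.17, 6.83 and 7.88 in C22. No values overlapped in either pair, and the log2 fold changes were 0.57 (edgeR: SE 0.17, adjusted p = 0.0376) and 0.68 (edgeR: SE 0.12, adjusted p = 0.00106). The C3 call was lost in 6 of 10 fits that left out 1 library, namely WT-C3 at 5, 7, 9 or 12 weeks or C3 at 3 or 5 weeks (adjusted p 0.0537 to 0.103), and with no filter (0.0565). That in C22 passed throughout. C3-cJunKO had 5.12, 8.24, 8.26, 8.23 and 5.40 CPM and did not pass against WT-C3. The gene model of Ccl25 is long (chr8:4374661-4540760, 12537 exon bases), and its receptor Ccr9 was below the minimum with at most 0.652 CPM.

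Ccl27a, a skin ligand of Ccr10, rose in C22 from 19.0, 16.3, 15.9, 14.2 and 14.8 CPM to 23.2, 18.5, 20.3, 20.1 and 26.5 CPM, by 0.43 (edgeR: SE 0.11, adjusted p = 0.00972). The other CPM were 11.8, 14.7, 14.9, 14.8 and 20.0 in WT-C3, 16.7, 16.5, 15.5, 10.6 and 17.2 in C3 and 10.9, 14.8, 17.4, 19.7 and 13.9 in C3-cJunKO. The log2 values against WT-C3 were 0.04 (edgeR: SE 0.15, adjusted p = 0.894) for C3 and 0.01 (edgeR: SE 0.17, adjusted p = 0.966) for C3-cJunKO. Ccl28, the mucosal ligand of the same receptor, passed in no comparison and ran from 0.877 to 2.15 CPM.

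Of the signalling receptors other than Cxcr4 and Cx3cr1, none passed in a comparison of a transgenic group with its WT group. Ccr2, the monocyte receptor of Ccl2, was at 6.88 to 19.1 CPM, with changes of -0.06 (edgeR: SE 0.23, adjusted p = 0.896) in C3 and -0.15 (edgeR: SE 0.20, adjusted p = 0.573) in C22. Ccr1 lay at 0.459 to 3.52 CPM and Cxcr3 at 0 to 1.55 CPM. Another 13 signalling receptors, Ccr3, Ccr7 and Cxcr2 among them, were below the minimum.

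Ackr1 (chr1:173159453-173161317), the atypical receptor of venules and red cell precursors, was lower in FVB nerve and lower again in C22. It had 47.5, 45.0, 43.7, 50.1 and 57.3 CPM in WT-C3 and 26.2, 28.9, 28.5, 28.7 and 25.4 in WT-C22, a log2 difference of -0.82 (edgeR: SE 0.08, adjusted p = 2.30e-05). In C22 it had 16.2, 15.6, 15.4, 19.7 and 18.7 CPM and fell by 0.69 on the log2 scale (edgeR: SE 0.09, adjusted p = 0.000103) without overlap. In C3 it had 28.4, 39.3, 38.8, 54.6 and 39.8 CPM, with a log2 change of -0.31 (edgeR: SE 0.14, adjusted p = 0.127) that did not pass. The highest of these values, at 9 weeks, comes from the library with the fewest counts, and without it the change was -0.41 (edgeR: SE 0.12, adjusted p = 0.0280), which passed, as it did with all 25 libraries in 1 fit (0.0406). In C3-cJunKO it had 32.0, 30.9, 31.6, 34.7 and 30.5 CPM, below all WT-C3 libraries, and a log2 change of -0.60 (edgeR: SE 0.08, adjusted p = 0.000305). Endothelial markers moved with it in C22: 3 of 4 (Cdh5, Kdr and Tek, not Pecam1) fell, and their summed level was 236 to 424 CPM in C22 against 384 to 551 CPM in WT-C22. In C3-cJunKO their sum was 313 to 476 CPM against 367 to 459 CPM in WT-C3, and none of the 4 passed. Ackr1 was also lower in WT-C22 than in WT-C3, where none of the 4 endothelial markers passed (median 0.17 on the log2 scale). Of 5 blood markers, 4 fell in C3-cJunKO against WT-C3 (median -2.11 on the log2 scale), 1 in C3 (-1.66) and 0 in C22 (-0.22). In WT-C22 against WT-C3, 1 was lower (median -1.45). The part of endothelial or blood content in the Ackr1 values was not tested. Ackr2 and Ackr4, scavengers of lymphatic vessels and stroma, passed in no comparison between groups. Ackr4 had its largest difference in C3-cJunKO against WT-C3, -1.52 (edgeR: SE 0.51, adjusted p = 0.0536). That difference passed with DESeq2 (adjusted p = 0.0144), with no filter on low counts (0.0330), with all 25 libraries in 1 fit (0.0223) and without WT-C3 at 3 or 5 weeks or C3-cJunKO at 12 weeks (0.0194 to 0.0392).

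With age, over all 5 groups at once, 12 of the 33 members passed a common linear slope beside 27.4% of all genes; 10 rose (13.4% of genes) and 2 fell (14.0%). The members that rose were Cxcl13, Cxcl9, Ackr4, Ccl22, Ccl21a, Ccl24, Ccl6, Ackr2, Ackr3 and Cxcl12, and those that fell were Ccl2 and Cx3cr1. Cxcl13, the B cell ligand of Cxcr5, had 1.096, 1.74, 4.56, 5.42 and 5.43 CPM from 3 to 12 weeks in WT-C3, 0.660, 1.17, 1.69, 1.38 and 3.49 in C3 and 0.267, 1.19, 0.877, 1.34 and 2.54 in C3-cJunKO. It had 2.86, 7.00, 14.7, 8.57 and 8.30 CPM in WT-C22 and 4.19, 4.28, 7.13, 9.40 and 5.71 in C22. In each group the level at 3 weeks was the lowest, and the slope was 0.19 ± 0.04 (SE) log2 units a week (edgeR, adjusted p = 0.000351). Between groups Cxcl13 was lower than WT-C3 at 5 of 5 ages in C3, with a log2 value of -1.08 (edgeR: SE 0.51, adjusted p = 0.156), and in C3-cJunKO, with -1.52 (edgeR: SE 0.51, adjusted p = 0.0524). It was higher in WT-C22 than in WT-C3 at 5 of 5 ages, by 1.19 (edgeR: SE 0.46, adjusted p = 0.0909). None of these passed. The C3-cJunKO difference did pass with DESeq2 (adjusted p = 0.0115), with no filter (0.0298), with all 25 libraries in 1 fit (0.0335) and without WT-C3 at 3 or 5 weeks or C3-cJunKO at 12 weeks (0.0187 to 0.0414). In fits without 1 library, the C3 difference passed without C3 at 12 weeks (0.0365) and the strain difference without WT-C22 at 3 weeks (0.0277).

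Ackr4, a scavenger of Ccl19, Ccl21 and Ccl25, had 1.41, 0.7101, 2.17, 3.59 and 6.35 CPM in WT-C3, 0.570, 0.976, 1.51, 3.21 and 1.93 in C3 and 0.427, 0.942, 0.877, 0.815 and 1.88 in C3-cJunKO. It was at 0.696, 1.06, 1.94, 1.30 and 2.24 CPM in WT-C22 and 1.16, 0.486, 0.756, 1.16 and 1.03 in C22, with a slope of 0.17 ± 0.03 (SE) log2 units a week (edgeR, adjusted p = 0.000359). The level at 12 weeks was above that at 3 weeks in 4 groups, C22 being the exception. Ccl21a, the lymphatic ligand of Ccr7, had 20.5, 27.6, 57.8, 22.6 and 24.6 CPM in WT-C3, 5.91, 20.8, 38.5, 16.1 and 47.3 in C3 and 16.4, 30.3, 34.7, 32.9 and 41.8 in C3-cJunKO. In FVB nerve it was at 12.4, 14.5, 17.2, 20.3 and 35.2 CPM in WT-C22 and 15.1, 13.8, 48.3, 41.6 and 17.0 in C22. Its values swung widely between neighbouring ages, with 57.8 CPM at 7 weeks in WT-C3 between 27.6 and 22.6, and the slope was 0.13 ± 0.04 (SE) log2 units a week (edgeR, adjusted p = 0.0190).

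Ccl24, an eosinophil ligand of Ccr3, had 2.97, 2.45, 8.21, 3.75 and 2.87 CPM in WT-C3, 0.810, 1.76, 2.23, 2.29 and 4.11 in C3, 1.17, 2.098, 3.11, 2.24 and 4.13 in C3-cJunKO, 3.36, 3.08, 5.05, 5.66 and 8.09 in WT-C22 and 2.96, 4.08, 3.28, 5.42 and 4.19 in C22. Its slope was 0.13 ± 0.03 (SE) log2 units a week (edgeR, adjusted p = 0.00231). Ackr2, which degrades inflammatory CC ligands, had 2.74, 2.29, 6.16, 3.11 and 2.50 CPM in WT-C3, 1.26, 2.65, 3.37, 2.29 and 2.92 in C3, 1.39, 2.37, 1.57, 2.24 and 3.04 in C3-cJunKO, 1.78, 2.65, 7.16, 5.15 and 6.31 in WT-C22 and 2.52, 3.16, 3.96, 5.10 and 4.00 in C22, with a slope of 0.09 ± 0.03 (SE) log2 units a week (edgeR, adjusted p = 0.0240). Within WT-C3 both were highest at 7 weeks, the library in which Ccl21a peaked as well. Summed markers of lymphatic endothelium (143 CPM against 80.9 to 102 in the other WT-C3 libraries), macrophages (548 against 309 to 424), mast cells (82.9 against 32.7 to 54.8) and adipocytes (2207 against 1004 to 1572) were also highest there in that group, and their part in these values was not tested. Cxcl9 had 1.096, 0.789, 1.60, 0.717 and 1.22 CPM in WT-C3, 0.1199, 0.819, 0.683, 1.84 and 1.81 in C3, 0.160, 0.790, 1.54, 1.26 and 2.65 in C3-cJunKO, 0.773, 0.742, 1.86, 2.99 and 2.29 in WT-C22 and 0.749, 0.729, 0.972, 2.82 and 0.990 in C22, and a slope of 0.20 ± 0.04 (SE) log2 units a week (edgeR, adjusted p = 0.00156).

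Of the more abundant members, Ccl6 rose by 0.11 ± 0.02 (SE) log2 units a week (edgeR, adjusted p = 0.000867), Ackr3 by 0.05 ± 0.01 (SE) log2 units a week (edgeR, adjusted p = 0.00620) and Cxcl12 by 0.04 ± 0.01 (SE) log2 units a week (edgeR, adjusted p = 0.00659). Ccl2 had a slope of -0.08 ± 0.03 (SE) log2 units a week (edgeR, adjusted p = 0.0271) and Cx3cr1 one of -0.05 ± 0.02 (SE) log2 units a week (edgeR, adjusted p = 0.0369), and both calls were lost with library size alone (adjusted p = 0.0556 and 0.097). Leaving out 1 of the 25 libraries ended the call of Ccl22 in 16 fits, Cx3cr1 in 8, Ccl2 in 5, Ackr2 in 3 and Ccl21a in 2, with adjusted p of at most 0.133, and those of the other 7 members in none. The slope of Ccl22 was 0.151 log2 units a week with all libraries and 0.097 without C22 at 9 weeks, where it passed (edgeR, adjusted p = 0.0269). With library size alone, 15 members rose and 0 fell, beside 4848 genes that passed. With the 10 WT libraries alone only 2 members passed, Ackr4 and Cxcl14, the latter with an adjusted p of 0.0011 in edgeR. Within single groups age passed for few members: Cxcl12 rose with age in C3 by 0.08 ± 0.02 log2 units a week (spline in edgeR, adjusted p = 0.0396), and Cxcl14 is described above. In C3-cJunKO no member passed in edgeR, where 2.96% of all genes did; 10 of the 33 had an unadjusted p under 0.05 and DESeq2 called 2. Markers of several cell types passed the same common slope. All 4 adipocyte markers, all 5 tested mast cell markers, 3 of 4 endothelial and 2 of 4 tested dendritic cell markers rose, and 4 of 6 Schwann cell and 3 of 5 fibroblast markers fell, with 1 fibroblast marker rising. Between 3 and 12 weeks summed adipocyte markers went from 294 to 2354 CPM in C3 and from 1167 to 3938 CPM in WT-C22, and summed Schwann cell markers from 97080 to 54940 CPM in WT-C3. The part of these cell types in the slopes was not tested.

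**Figure D4:**
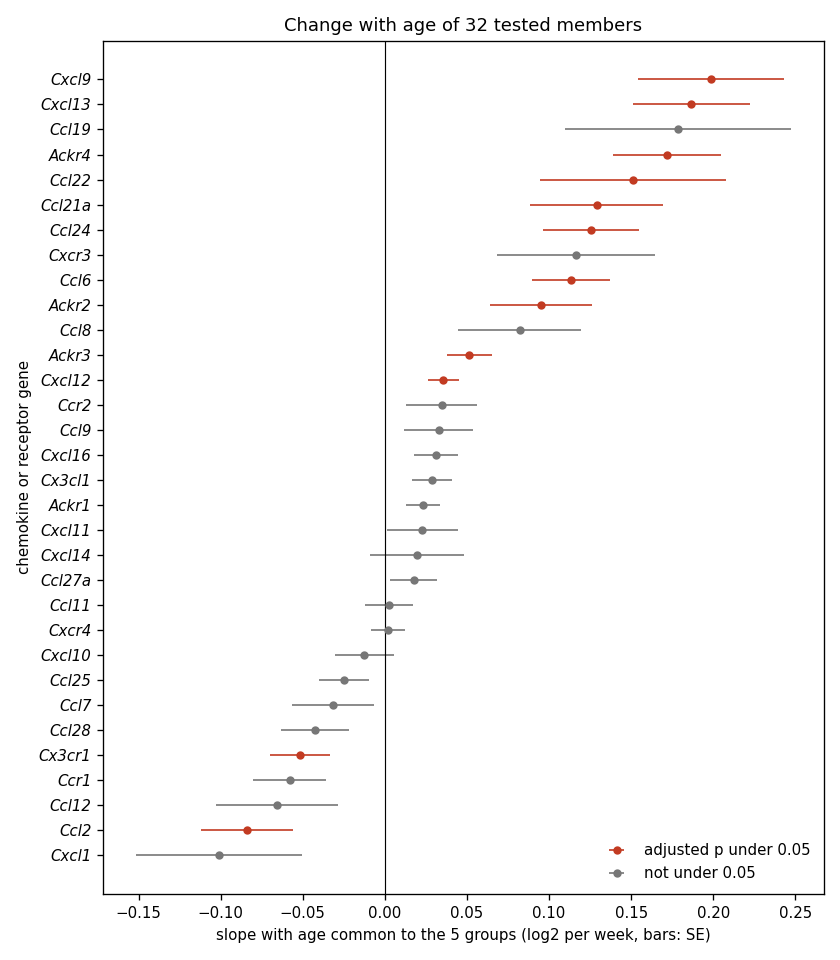
Slope with age common to the 5 groups (log2 units per week, points) with its SE (bars) for 32 tested members; red points have an adjusted p under 0.05 in edgeR. Cxcl9 and Cxcl13 lie farthest to the right at 0.20 and 0.19 a week, and Ccl2 and Cx3cr1 are the 2 red points below 0.

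The C22 library of 9 weeks held more of many members than the other C22 libraries. Of 47 members with over 3 counts in a C22 library, 30 were highest in that one, and 12 were at least 2 times above the next C22 library, while none was so in the other 4. These 12 were Ccl22, Ccl19, Cxcl9, Cxcl1, Ccl5, Ccl17, Ccr7, Cxcr5, Ccr6, Ccr4, Xcr1 and Cxcr2. Ccr7, Cxcr5, Ccl17 and Cxcr2 exceeded 3 counts in no other C22 library, so they were counted only because they were high in this one. The share of all genes that were highest in that library was not counted, so these counts are not read as a trait of the members. Ccr7, the receptor that leads T and dendritic cells into lymph nodes, had 65 counts there of 104 in all 25 libraries, and Cxcr5, the follicular receptor of B cells, 48 of 74. Ccl19, a ligand of Ccr7, was at 0.443, 0.535, 1.08, 3.83 and 1.03 CPM in C22. The T and B cell markers given above were high in the same library, and their part in these values was not tested.

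Ccl22, a dendritic cell ligand of Ccr4, was called in C22, with its highest value in that library. It had 0.193, 0.424, 0.538, 0.668 and 0.402 CPM in WT-C22 and 0.851, 1.02, 0.648, 6.76 and 0.990 CPM in C22. Its other CPM were 0.391, 0.316, 0.228, 0.717 and 0.427 in WT-C3, 0.330, 0.624, 0.562, 0.459 and 1.31 in C3 and 0.373, 0.334, 0.695, 0.896 and 0.580 in C3-cJunKO. The log2 change in C22 was 2.21 (edgeR: SE 0.71, adjusted p = 0.0278), and it was 0.96 without the 9-week C22 library, where it still passed (adjusted p = 0.0345). Leaving out WT-C22 at 3, 7 or 12 weeks ended the call (adjusted p 0.0503 to 0.0600). In C22 against WT-C22, 12 members were called without that library and 12 with it, beside 6392 and 6304 of all genes.

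**Figure D5:**
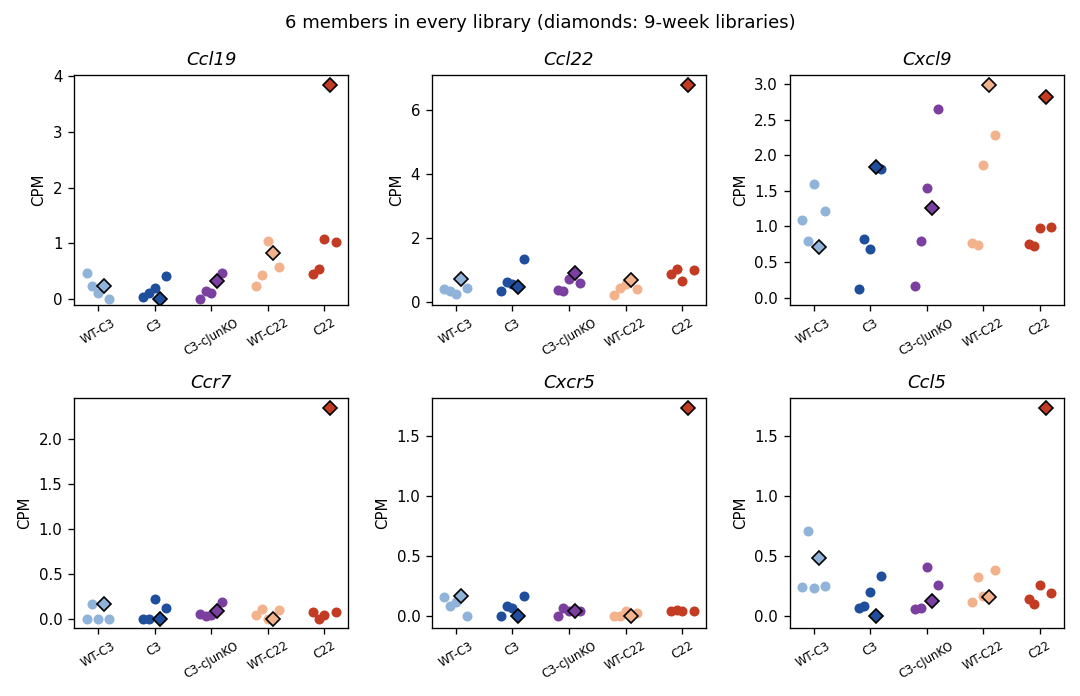
CPM of 6 members in every library by group, with the 9-week library of each group as an outlined diamond. The C22 diamond is the highest C22 point in all 6 panels, at 6.76 CPM for Ccl22 and 3.83 CPM for Ccl19.

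Below the minimum, 18 of 32 members exceeded 3 counts in at least 1 library and 9 of these 18 had their highest CPM in C22 at 9 weeks. The same was not counted over all genes. The neutrophil receptor Cxcr2 reached at most 6 counts and the neutrophil ligands Cxcl2 and Cxcl5 at most 5 and 10 in a library. None of 6 neutrophil markers passed the minimum either. Ccl3 and Ccl4, ligands made by macrophages and T cells, had 106 and 63 counts in all 25 libraries together.

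Genes around the members were counted in 4 lists. Of 36 tested genes of chemokine receptor signalling, 7 rose and 5 fell in C3 and 6 rose and 7 fell in C22, with medians of 0.12 and -0.03 on the log2 scale. Over all genes 10.7% rose and 9.71% fell in C3 and 20.0% rose and 18.3% fell in C22, which is the background for each of the 4 lists. Arpc1b, a subunit of the actin-nucleating Arp2/3 complex, rose in both (0.67 ± 0.09 in C3 and 0.41 ± 0.10 in C22), and the small GTPase Rac1 fell in both (-0.50 ± 0.09 and -0.41 ± 0.06). Of 26 inducers of chemokine genes, 8 rose and none fell in C3 (median 0.19), and 7 rose and 4 fell in C22 (median 0.02). The AP-1 genes Jun, Fos, Fosl2 and Atf3 and the NF-kappa B subunit Nfkb2 rose in both. Nfkb2 had 0.75 ± 0.08 in C3 and 0.53 ± 0.07 in C22, and Fos 1.60 ± 0.26 and 1.42 ± 0.14. In C22 the cytokine Lif fell by 2.49 on the log2 scale. No member of the first list passed in C3-cJunKO against C3, nor in the list of 13 chemoattractant genes outside the symbol rule; in the inducer list the 1 that did was Jun. Among those 13, 1 rose and 2 fell in C3 and 2 rose and 3 fell in C22, with Mif, a macrophage attractant, down in C3 (-0.78 ± 0.19) and up in C22 (0.56 ± 0.17). The macrophage growth factor Il34 went up in C3 (0.43 ± 0.11) and down in C22 (-0.38 ± 0.10). Of 20 genes that bind or cut chemokines, 3 rose and 1 fell in C3 and 6 rose and 3 fell in C22. In C3-cJunKO Gpc1, a heparan sulfate carrier, was the 1 of this list that fell against C3 (-0.65, SE 0.11). The membrane protease Mmp14 rose in both (0.62 ± 0.12 and 0.77 ± 0.09), while Adam10, which sheds Cx3cl1 and Cxcl16, fell in C22 by 0.83 (SE 0.13; edgeR, adjusted p = 0.000451).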

How the data were processed

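RNA-seq libraries were prepared from pooled sciatic nerves with a stranded poly(A) protocol, and 1 table of whole-number gene counts, not normalized, was deposited by the authors. To make these counts, the authors checked reads with FastQC 0.11.9, trimmed them with cutadapt 2.10, aligned them with STAR 2.7.5a to mouse GRCm39 joined with the human PMP22 locus of GRCh38, removed duplicates with UMI-tools 1.1.1 and counted uniquely aligned reads with HTSeq 0.12.4 on Ensembl 110 genes. Reads on no gene (8.12% to 12.1% of a library) and on more than 1 place (2.76% to 3.93%) were listed apart from the genes and left out here. All 25 libraries carry the same batch label.

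Genes with a mean CPM of at least 0.5 over the 25 libraries (16472) were tested with the quasi-likelihood test of edgeR 4.0.16 in R 4.3.3, with TMM scaling and Benjamini-Hochberg adjustment over all of them, at a threshold of 0.05. Groups were compared in pairs without an age term. Age was fitted as a natural spline with 3 degrees of freedom in each group, and as 1 slope common to the groups. Deviations of libraries of the same age from their group means correlated in C3-cJunKO and C3 at all 5 ages (r = 0.413, 0.106, 0.311, 0.197 and 0.552 from 3 to 12 weeks). The labels name no pairing, and a pairing and a shared course with age cannot be told apart here. The main fits and those that left out 1 library take no account of this correlation. In the other pairs of groups at least 1 age was below 0.1. Between the WT groups r was 0.234, 0.554, 0.093, 0.45 and 0.013 from 3 to 12 weeks, so some ages correlated there as well. Scripts were tested on simulated counts with known changes.

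Members with values in every library are those called in a comparison, with Ccl2 and Cx3cr1 added; genes of other lists were named from the highest mean CPM, and the marker genes Trem2, Cd163, Aif1, Mrc1, Flt3 and Zbtb46, the endothelial markers, Il34, Mif, Gpc1, Nfkb2, Fos, Atf3, Lif and Fosl2 were singled out after their values were seen. The members and lists were chosen with earlier results of these data known. Alternatives were other scalings, filters, DESeq2 1.42.0, age as a block, all libraries in 1 fit, a stricter threshold and leaving out each library. The values of 1 tested member, which is included in the counts, are not reported here. Promoter windows came from RefSeq.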

Additional observations from a re-analysis of the deposited data

Results flagged for a closer look

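In each group of 5 libraries the highest and lowest value of the 33 tested members was compared with the rest by Dixon's ratio. Its cutoff flags about 5% of sets of independent values from 1 normal distribution. The values here differ in age and depth, so 5% is not a chance rate for them and no excess is read from the count. In 21 of 165 groups 1 library stood apart. In C22 at 9 weeks these were Ccl22 at 6.76 CPM (others 0.648 to 1.02), Ccl19 at 3.83 CPM (others 0.443 to 1.08), Cxcl9 at 2.82 CPM (others 0.729 to 0.990) and Cxcl16, the ligand of Cxcr6, at 8.86 CPM (others 5.54 to 6.33). In C3 at 9 weeks, the library with the fewest counts, they were Cxcl11 at 17.0 CPM from 37 counts (others 8.13 to 10.0), Cx3cl1 at 14.2 CPM from 31 counts (others 7.74 to 9.08), Ccl27a at 10.6 CPM from 23 counts (others 15.5 to 17.2) and Ccl12 at 0 CPM (others 0.422 to 0.576). In WT-C3 at 7 weeks they were Ccl21a at 57.8 CPM (others 20.5 to 27.6), Ccl24 at 8.21 CPM (others 2.45 to 3.75), Ackr2 at 6.16 CPM (others 2.29 to 3.11) and Cxcr3 at 1.25 CPM from 11 counts (others 0.158 to 0.391).

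In C3-cJunKO at 12 weeks Cxcl12 stood at 196 CPM (others 140.5 to 156), Ackr3 at 70.1 CPM (others 46.0 to 49.8), Cxcl16 at 12.0 CPM (others 7.86 to 8.72) and Cxcl10 at 3.88 CPM (others 2.56 to 2.89). At 3 weeks Cxcl14 was at 211 CPM in C3-cJunKO (others 156 to 170), and in C3 Cx3cr1 was at 35.4 CPM (others 21.3 to 24.3) and Ackr3 at 44.6 CPM (others 66.6 to 72.4). The remaining values were Cxcr4 at 5.42 CPM in WT-C3 at 9 weeks (others 3.37 to 3.85) and Cxcl11 at 0.744 CPM in WT-C22 at 7 weeks from 18 counts (others 1.04 to 1.14).

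The change of Cxcr4 differed between the models, with a log2 change in C22 that was 1.52 above that in C3 (edgeR, adjusted p = 2.45e-06).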

How the results depend on the processing

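Of 1121 values of called members recomputed under the alternatives, 1020 still passed and 101 did not, and none of those with a direction changed it. Of 3903 values of members not called, 75 passed under an alternative, for 19 members; 28 of these were for the common slope and 19 in C3-cJunKO against WT-C3 (Ccl25, Cxcl13, Ackr4 and Ccl9), and 181 had the other sign. At an adjusted p under 0.01 the members called numbered 4 in C3, 1 in C3-cJunKO against C3 and 4 in C3-cJunKO against WT-C3. The share of all genes at that threshold was not counted. With no filter on low counts C3-cJunKO against C3 had 1, beside 131 of all genes. Without both 9-week libraries of C3 and C22, chosen after seeing the data, the difference between the models had 2 (Cxcr4 and Cxcl11), beside 2070 of all genes. The 10 WT libraries alone gave 2 for the common slope, beside 1400 of all genes. For age within a group, counts over all genes are given in brackets. A linear slope gave 2 in WT-C3 (387) and 0 in C22 (96), and a spline with 2 degrees of freedom 1 in C3 (519) and 0 in C22 (59). The likelihood ratio test of DESeq2 gave 2 in WT-C3 (360), 5 in C3 (912), 2 in C3-cJunKO (970) and 3 in WT-C22 (945). It gave an adjusted p for 29, 29, 24 and 24 of the 33 members in these groups. With the study's own filter, which kept 24 members, the counts were 0 for age in C22 (51) and 0 for its difference from WT-C22 (0). Leaving out 1 library gave 5 to 9 members in C3, 8 to 12 in C22, 1 to 2 for the difference (2 without WT-C3 at 3 weeks, C3 at 3 weeks or WT-C22 at 12 weeks), 1 to 2 in C3-cJunKO against C3, 7 to 11 in C3-cJunKO against WT-C3, 7 to 11 between the WT groups and 8 to 16 for the common slope. Over all genes these fits called 2205 to 3742 in C3, 5317 to 6392 in C22 and 1347 to 1987 for the difference. They called 56 to 117 genes in C3-cJunKO against C3 and 2464 to 3577 in C3-cJunKO against WT-C3. Between the WT groups it was 2667 to 3471 genes, and for the common slope 3709 to 4864. With age as a replicate block 9 members passed in C3, 13 in C22, 1 for the difference, 2 in C3-cJunKO against C3, 10 in C3-cJunKO against WT-C3 and 8 between the WT groups. Under the block Cxcl13 passed in C3 (adjusted p = 0.0259 in edgeR), in C3-cJunKO against WT-C3 (0.00390) and between the WT groups (0.00307). Ackr4 passed in C3-cJunKO against WT-C3 (0.0168), Ackr3 and Ccl6 in C3, and Cx3cl1 in C22. In these comparisons r was below 0.1 for at least 1 age. Over all genes the block moved C3-cJunKO against C3 from 100 to 330 genes. It also raised the count from 3357 to 3658 in C3, from 6304 to 6485 in C22 and from 1677 to 2050 for the difference. In C3-cJunKO against WT-C3 it went from 3267 to 3621, and between the WT groups from 3503 to 4236. The cause of each change was not tested. Leaving libraries out of the age splines was not run, since a group would have no residual degrees of freedom. The low total of C3 at 9 weeks limits members near 1 CPM.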
